A study of Mus musculus with 24 samples.

Results

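The comparison described here sets the heavy polysomes of halofuginone-treated NIH/3T3 cells against the light polysomes of the same cells. Its members are 6 of the 24 libraries of the series, 3 of heavy and 3 of light polysomes, chosen by the count table's column headers and paired by the tag in each header. NIH/3T3 is an established line of mouse fibroblasts. The halofuginone group received 100 nM of the compound for 24 h at 37 °C, per the labels, and the vehicle group the same volume of PBS. Both treatments were given in medium with 10% bovine calf serum. Halofuginone blocks the proline site of Eprs, a double enzyme that loads proline and glutamate onto their tRNAs. RNA was sequenced from whole cells and from 3 pools of polysome gradient fractions, namely ribosome-free, light, and heavy (more than 5 ribosomes per mRNA). The vehicle heavy and light pools, 3 libraries each, are set beside the halofuginone pools where stated.

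The pairs carry the tags A, 2 and 4. Pair A pooled gradient fractions 7 to 11 as heavy and 3 to 6 as light, and its headers give a halofuginone dose of 50 nM. Pairs 2 and 4 pooled fractions 14 to 21 as heavy and 6 to 13 as light, and their headers name no dose. What dose the cells of pair A received could not be settled. Replicates are described as biological in the design text. No label says which tags stand for separate cultures, and p-values therefore cover the spread between these libraries, which may be technical.

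Depth lay between 16184418 and 21058160 counts in the heavy libraries and between 14541443 and 21571893 counts in the light libraries. Mitochondrially encoded RNAs took 0.354% to 0.746% of the heavy counts and 2.45% to 7.71% of the light counts. All 9 fibroblast markers reached 5 CPM (the count of a gene relative to the scaled total of its library) in at least 1 library, with summed levels of 4272 to 10940 CPM in heavy and 3600 to 7933 CPM in light pools. Of the markers of other cell types, 0 of 5 epithelial and 0 of 6 leukocyte genes reached 5 CPM, while 1 of 5 endothelial genes (Vwf) and 2 of 5 adipocyte genes (Fabp4 and Lpl) did. The summed adipocyte markers lay between 49.1 and 188.9 CPM in heavy and between 38.5 and 103 CPM in light pools, and their part in any result was not tested.

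A polysome is an mRNA with several ribosomes translating it, and on a sucrose gradient it sediments farther the more ribosomes it carries. The number of ribosomes on an mRNA reflects how often ribosomes start, how fast they move and how many the reading frame has room for. An upstream open reading frame is a short frame before the main start codon that can catch scanning ribosomes. In the amino acid response, uncharged tRNA activates the kinase Gcn2, phosphorylation of eIF2 lowers initiation on most mRNAs, and mRNAs such as Atf4 with particular upstream frames are then translated better. Values are relative to each library's own total and so are shares of the mRNA in a pool, not amounts per cell. In such bulk pools, fewer cells with an mRNA and less of it per cell cannot be told apart.

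Short reading frames among the mRNAs far on the light side are shown first, as a scale for how short some of them are. The part of frame length in their placement was not tested. Each sequence is the whole coding sequence from 5′ to 3′ on the coding strand, from GENCODE M21 transcripts of GRCm38, with the start and stop codons in capitals. Rpl41, a protein of the large ribosomal subunit, is encoded within chr10:128548387-128548960 on the minus strand and has 25 residues. Tmsb4x, the actin-binding peptide thymosin beta 4, is encoded within chrX:167207501-167208036 on the minus strand and has 44 residues. Selenow, a selenoprotein, is encoded within chr7:15919863-15922280 on the minus strand and has 88 residues. Its capitals also mark codon 13, an internal TGA that is read as selenocysteine instead of stop.
Rpl41: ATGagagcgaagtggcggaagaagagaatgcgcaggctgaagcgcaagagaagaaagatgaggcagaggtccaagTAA
Tmsb4x: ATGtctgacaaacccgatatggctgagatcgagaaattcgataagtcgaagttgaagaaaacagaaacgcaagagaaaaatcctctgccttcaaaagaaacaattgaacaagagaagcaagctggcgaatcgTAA
Selenow: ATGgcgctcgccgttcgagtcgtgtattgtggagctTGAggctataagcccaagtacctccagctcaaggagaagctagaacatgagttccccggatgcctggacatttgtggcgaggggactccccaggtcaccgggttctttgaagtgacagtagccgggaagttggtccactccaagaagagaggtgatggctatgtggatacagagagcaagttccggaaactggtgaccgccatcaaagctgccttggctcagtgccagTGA

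In contrast stands Col1a2, the alpha 2 chain of type I collagen, a secreted fibril protein of 1372 residues that is rich in proline. Codons 38 to 77, the 40-codon stretch of its frame with the most proline codons, are shown with the 14 proline codons in capitals. This stretch lies within chr6:4509619-4510782 on the plus strand.
Col1a2: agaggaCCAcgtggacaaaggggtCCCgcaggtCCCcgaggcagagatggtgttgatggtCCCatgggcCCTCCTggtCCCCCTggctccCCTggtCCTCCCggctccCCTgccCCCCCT

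In halofuginone cells, 12310 genes were tested, and 6438 of them (52.3%) differed between heavy and light polysomes in edgeR's quasi-likelihood test with the tag as block and a Benjamini-Hochberg threshold of 0.05. Of these, 3174 were higher in heavy polysomes (25.8% of all genes tested) and 3264 lower (26.5%). Those shares are the background for every count below that comes from this fit, and "called" means past this threshold. The ratios were uneven in size: 593 called genes were over 4-fold lower in heavy polysomes and 13 were over 4-fold higher. The 3 heavy libraries all lay above the 3 light libraries for 1779 genes (14.5%) and all below them for 2361 genes (19.2%). A fit without the tag block called 1102 genes, 234 higher and 868 lower, and all 1102 were among the 6438. Without pair A, which leaves the pairs cut at the same fractions, 3035 of 12394 genes were called (988 higher, 2047 lower). Without pair 4, 4607 of 12815 were called (1898 higher, 2709 lower). Without pair 2, 7474 of 12464 were called (3784 higher, 3690 lower). List counts from such a fit are to be read against its own calls over all genes, not against the shares above. The number of list members tested could also differ by fit. Gene lists and single genes below are also given without a pair, or without the block, where calls depend on it.

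The mRNAs lying farthest towards light polysomes encoded tiny proteins, mitochondrial subunits or no protein at all. Selenow had 36.4, 39.0 and 87.7 CPM in the heavy libraries of pairs A, 2 and 4, against 466, 776 and 903 CPM in the light libraries. All heavy values lay far below all light values, and the log2 ratio of heavy over light was -3.78 ± 0.30 (SE, n = 3 pairs, edgeR adjusted p = 2.62e-17). Here and below, ± is the standard error of edgeR's fit, in which each gene's variance is drawn towards a trend over all genes. It is not the spread of the 3 pairs, which can be wider. Tmsb4x had 100.7, 90.9 and 146 CPM in heavy and 1372, 1221 and 1344 CPM in light polysomes, a log2 ratio of -3.57 ± 0.30 (edgeR adjusted p = 2.18e-16). Its relative Tmsb10, also of 44 residues, had a ratio of -3.29. Rpl41, the shortest frame printed above, had 351, 449 and 318 CPM in heavy and 3644, 6140 and 3169 CPM in light polysomes, a log2 ratio of -3.49 ± 0.32 (edgeR adjusted p = 3.71e-15). No heavy library of these mRNAs came near a light one. The lowest ratios among well-measured genes also included mt-Nd2 (-3.63) and mt-Nd4 (-3.36), subunits of respiratory complex I made inside mitochondria. They further included Snhg8, Snhg12 and Snhg6, host transcripts of small nucleolar RNAs, at -3.38, -3.38 and -3.37.

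**Figure D1:**
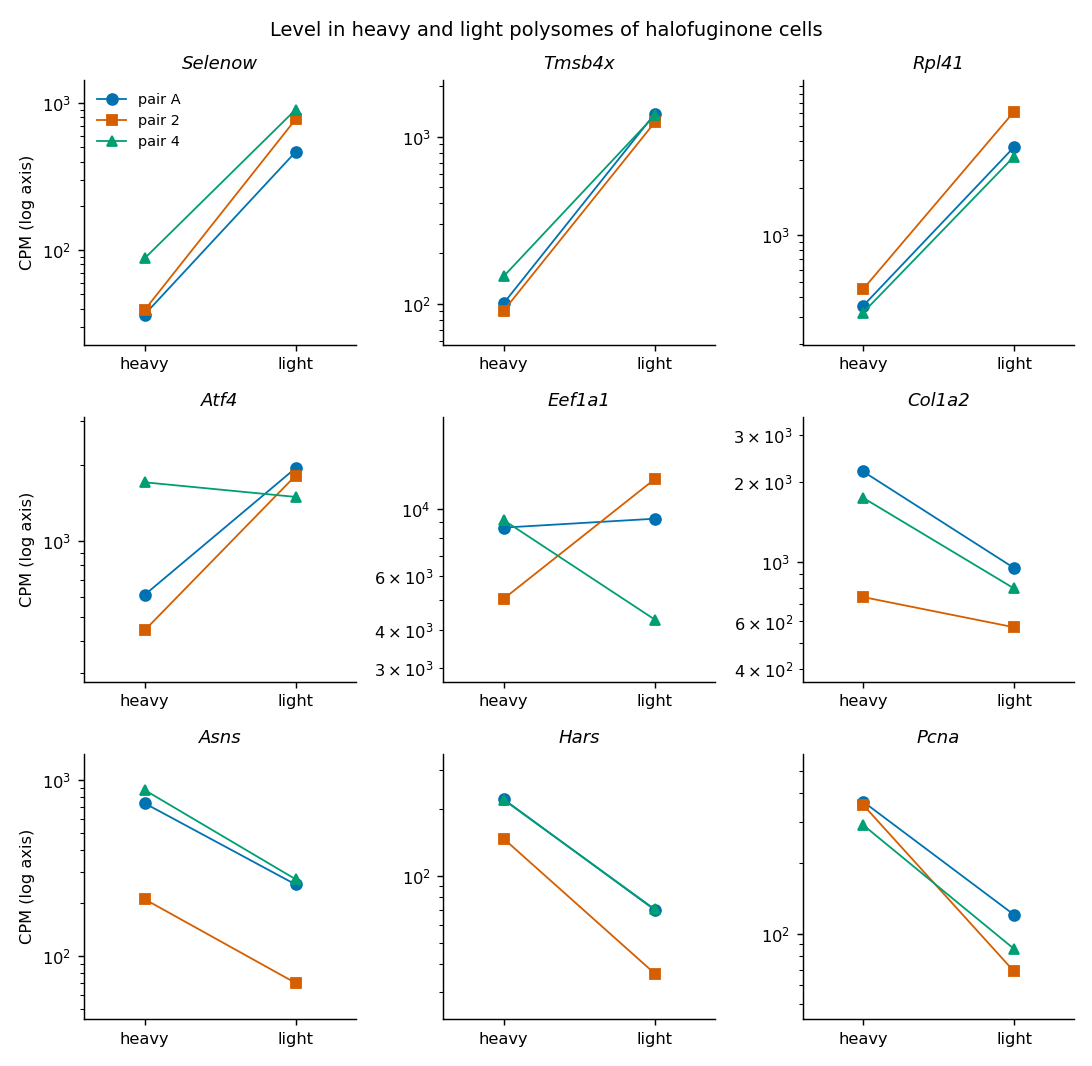
Levels of 9 genes in heavy (left) and light (right) polysomes of halofuginone cells, in CPM on log axes that differ between panels; each line joins the 2 libraries of a pair. Selenow, Tmsb4x and Rpl41 were lower in heavy polysomes in every pair, Asns, Hars, Pcna and Col1a2 were higher in every pair, and the pairs went different ways for Atf4 and Eef1a1.

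At the other end, the 8 highest ratios under the same rule belonged mostly to soluble enzymes and nuclear proteins of middle length. Without that rule the highest ratio of a called gene was 2.28. Akr1b3, an aldose reductase of 316 residues, had 267, 313 and 155 CPM in heavy and 90.4, 41.6 and 33.7 CPM in light polysomes, a log2 ratio of 2.22 ± 0.27 (edgeR adjusted p = 9.21e-11). The lowest heavy library stood above the highest light library. Urod, the haem synthesis enzyme uroporphyrinogen decarboxylase, had 152, 173 and 169 CPM in heavy and 44.8, 31.7 and 37.7 CPM in light polysomes, a ratio of 2.12 ± 0.25. Anxa11, an annexin that binds membranes in the presence of calcium, followed with 2.19. The remaining leaders were Hnrnpa2b1 (1.99), an RNA-binding protein, the histone acetyltransferase Hat1 (1.97), the prostaglandin reductase Ptgr1 (1.96), the histone-binding protein Rbbp7 (1.95) and the cytosolic malate dehydrogenase Mdh1 (1.93). Non-overlapping libraries were a condition for choosing these 8, and each had a protein of 316 to 503 residues. The highest ratios were thus smaller in size than the lowest.

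Protein length separated the genes most clearly up to about 400 residues. Coding genes of under 100 residues (216 genes) had a median log2 ratio of -1.87, with 94.0% called lower in heavy polysomes and 0.463% higher. Those of 100 to 200 residues (1195) had a median of -0.79, with 58.4% lower and 3.60% higher. From 200 to 400 residues (3166) the median was 0.15, and from 400 to 800 (4048) it was 0.28, with 35.1% called higher and 16.4% lower. Longer frames did not go further: the medians were 0.24 for 800 to 1600 residues (1861) and 0.29 for 1600 and more (504). Across genes, which are not independent, the log2 ratio and the log2 length had a Pearson r of 0.545 below 400 residues (4577 genes) and 0.0162 from 400 residues on (6413 genes).

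The pairs differed among the long frames. For 1600 residues and more, the median ratio was 0.44 in pair A, -0.16 in pair 2 and 0.62 in pair 4, and for 800 to 1600 residues it was 0.27, -0.10 and 0.47. For under 100 residues the 3 pairs were close, at -1.94, -1.73 and -1.73. In vehicle cells the fitted medians from short to long were -2.09, -0.99, 0.12, 0.30, 0.26 and 0.31. Pair 2 of the halofuginone cells also held the largest mitochondrial share in both pools, 0.746% of heavy and 7.71% of light counts, and the part of this in the long-frame medians was not tested.

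**Figure D2:**
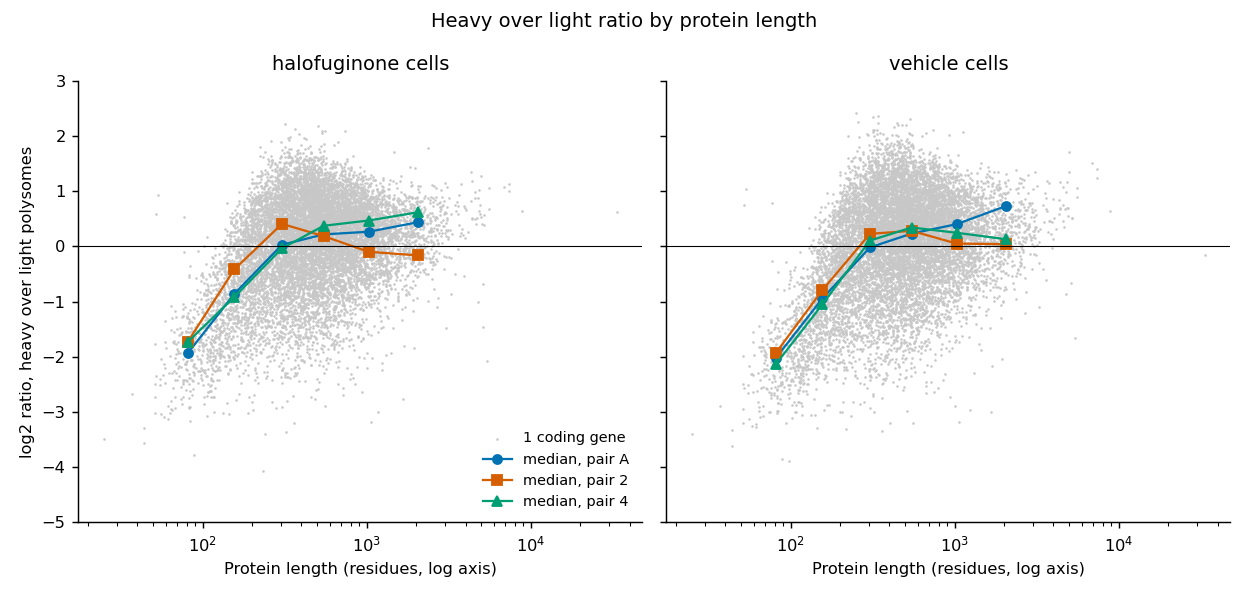
Log2 ratio of heavy over light polysomes against protein length (log axis) in halofuginone cells (left) and vehicle cells (right). Grey points are coding genes with their fitted ratio, and the coloured lines join each pair's medians in the 6 length classes: below 200 residues all pairs lie under 0, and for the longest proteins pair 2 of halofuginone cells (-0.16) lies below pairs A (0.44) and 4 (0.62).

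RNAs of the long noncoding classes lay almost wholly on the light side. Of 500 genes annotated as long intergenic, antisense, processed, bidirectional-promoter, sense intronic or sense overlapping transcripts, 414 were called lower and 6 higher in heavy polysomes, with a median ratio of -1.83. Processed pseudogenes, not counted there, were more mixed, with 148 of 352 lower, 52 higher and a median of -0.64. Among hosts of small nucleolar RNAs, whose introns carry the guide RNAs for rRNA modification, 16 of 16 tested were lower, with a median of -3.01. Gas5, a widely studied host transcript, had -3.10, and the smallest difference in the list was that of Snhg5 at -1.85. Among nuclear and imprinted noncoding RNAs, 10 of 11 were lower, and 6 of them without the block. Malat1, a nuclear-retained RNA, had 5.998, 7.99 and 4.04 CPM in heavy and 30.8, 36.1 and 19.4 CPM in light polysomes, a ratio of -2.26 ± 0.24 (edgeR adjusted p = 2.39e-12). Tug1 was the exception, at -0.29 with an edgeR adjusted p of 0.300.

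Mitochondrially encoded RNAs are translated on mitochondrial ribosomes inside the organelle, and all 9 tested were lower in heavy polysomes, with a median of -2.87. mt-Nd2 had 141, 328 and 362 CPM in heavy and 1966, 7182 and 2241 CPM in light polysomes. The difference was smallest for mt-Rnr1 (-1.90) and mt-Rnr2 (-2.21), the RNAs of the mitochondrial ribosome. Leaving out these RNAs before scaling changed the count of called genes to 6423.

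mRNAs for the cytosolic ribosome were lower in heavy polysomes. Of the large-subunit genes, 0 of 46 were called higher and 32 lower, with a median of -1.06, and of the small-subunit genes 0 of 32 were higher and 26 lower, with a median of -1.23. Without the tag block the lower counts were 18 and 16. Without pair 2, 3 large-subunit genes were called higher. Within the lists the ratio followed length, with a Pearson r of 0.791 across 78 genes. Rpl39 (51 residues) had -3.02 and Rps29 (56 residues) -3.04, while Rpl15 (204 residues) had 0.39 (edgeR adjusted p = 0.237; without pair 2 it was 0.65 and called) and Rps6 (249 residues) -0.11 (edgeR adjusted p = 0.774). Length alone did not place them all. Rps12, of 132 residues, had 626, 1142 and 1012 CPM in heavy and 4645, 9911 and 8272 CPM in light polysomes, a ratio of -3.01 ± 0.32. Rplp0, the stalk protein of 317 residues, had -1.45. In the class of 100 to 200 residues, the 20 small-subunit genes had a median of -1.27 and the 27 large-subunit genes -1.23, against -0.79 for all 1195 coding genes of that length. Ribosomal protein genes have many processed pseudogenes, and how reads matching several loci were counted is not given in the sources used here.

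Both directions appeared where a list mixes small and large subunits, as they did over all genes. The nuclear genes of oxidative phosphorylation had 18 of 73 called higher (24.7%) and 28 lower (38.4%), against 25.8% and 26.5% of all genes. Their ratio followed length with a Pearson r of 0.877. Atp5b, the catalytic beta subunit of ATP synthase (529 residues), had 3348, 2240 and 4396 CPM in heavy and 1208, 548 and 1130 CPM in light polysomes, a ratio of 1.82 ± 0.30 (edgeR adjusted p = 3.95e-07). Uqcr10, a small subunit of complex III (64 residues), had 34.2, 38.5 and 47.2 CPM in heavy and 254, 388 and 291 CPM in light polysomes, a ratio of -2.95 ± 0.27 (edgeR adjusted p = 5.09e-15). The libraries did not overlap for either gene. The ratio of mitochondrial ribosomal proteins also followed length (Pearson r 0.774). Of these genes 22 of 75 were higher (29.3%) and 17 lower (22.7%), near the shares over all genes. They ran from Mrpl42 at -2.30 to Mrpl16 at 1.58. Their median was 0.14, and -0.03 without pair 2. Without pair A the higher and lower counts were 11 and 22 for oxidative phosphorylation and 9 and 11 for mitochondrial ribosomal proteins, and without the block they were 5 and 17, and 4 and 8. Without pair 4 the mitochondrial ribosomal proteins had 9 lower.

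**Figure D3:**
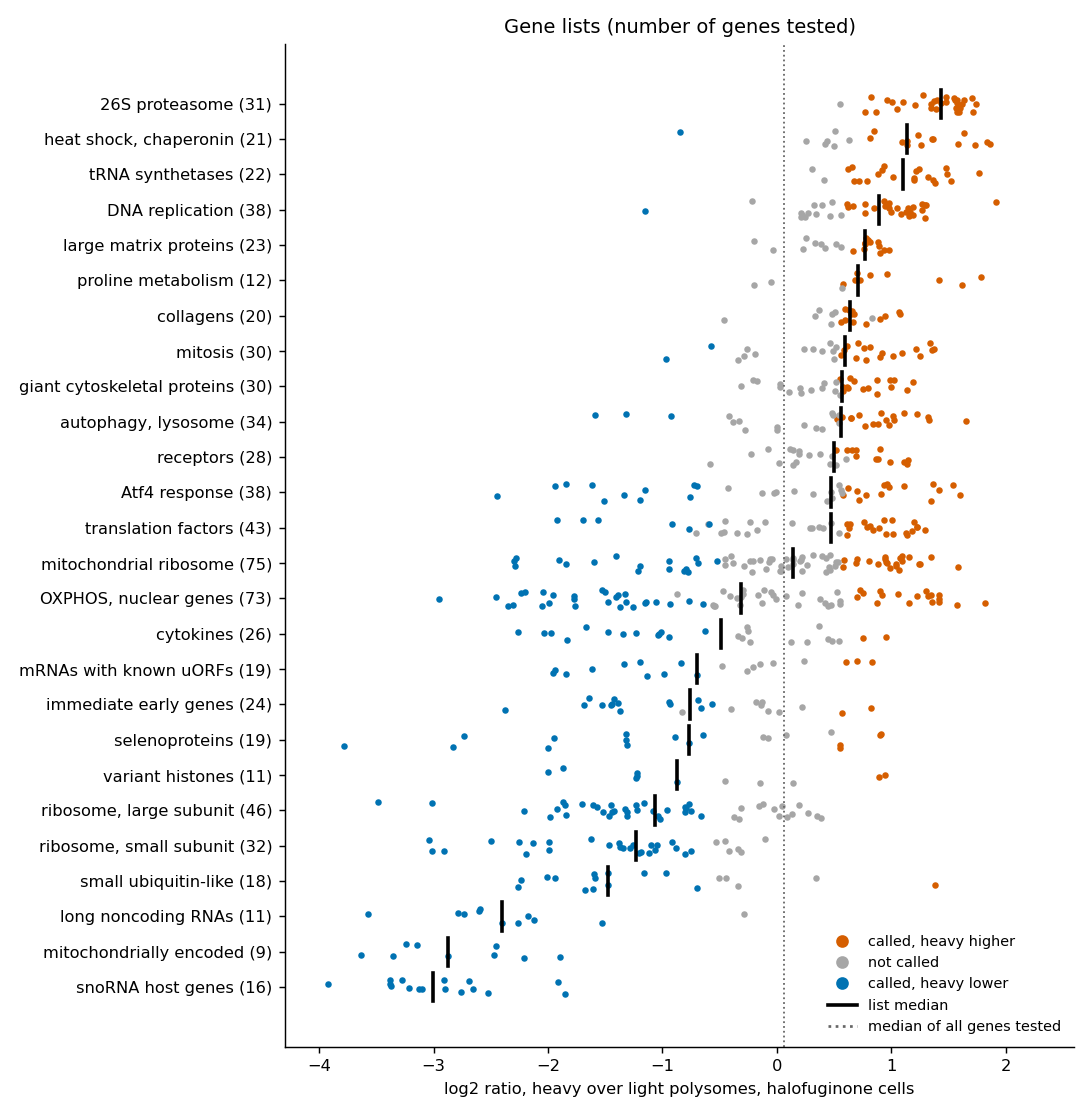
Log2 ratio of heavy over light polysomes in halofuginone cells for the members of 26 gene lists, ordered by their medians. Each point is a gene, coloured by whether it was called higher, called lower or not called, and the vertical bars are list medians, from 1.44 for the proteasome to -3.01 for hosts of small nucleolar RNAs.

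Small proteins of other kinds were on the light side too. Of 18 genes for ubiquitin, ubiquitin-like modifiers and their fusions, 13 were lower and 1 higher, with a median of -1.48. Sumo2, a modifier attached to nuclear proteins, had -2.27. The exception was Ubb, a polyubiquitin of 305 residues, which had 701, 565 and 1429 CPM in heavy and 348, 176 and 522 CPM in light polysomes, a ratio of 1.38 ± 0.28 (edgeR adjusted p = 2.44e-05). Of 11 histone variant genes 6 were lower and 2 higher, and Cenpa, the centromeric histone, had -1.9995. Replication-dependent histone mRNAs lack a poly(A) tail, and 5 of 32 were tested. Of those, 4 were lower. Without the block, 8 of the ubiquitin group, 0 of the histone variants and 1 replication-dependent histone were lower, and without pair A the histone variants had 4 lower and 1 higher. Small GTPases, molecular switches that are longer (median 200 residues, against 117 for the ubiquitin group), lay less on the light side. In the class of 100 to 200 residues 18 of them had a median of 0.14, against -0.79 for all coding genes of that class. Their median length there was 184 residues, against 156 for all. Their medians in pairs A, 2 and 4 were -0.20, 0.79 and -0.37, against -0.86, -0.41 and -0.92 for all coding genes of the class. Over the whole list of 37 GTPases, of which 5 were higher and 3 lower, from Hras at -1.69 to Rab11a at 0.90 (not called without pair A), pair 2 had a median of 1.04, pair A 0.05 and pair 4 -0.28. Without pair 2, 1 GTPase was higher and 9 were lower, without pair A 0 and 1, and without the block 0 and 2.

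Selenoproteins read an internal UGA codon as selenocysteine, and 11 of 19 tested were lower in heavy polysomes while 4 were higher. The small ones were lowest. Gpx1, a glutathione peroxidase of 201 residues, had 60.6, 83.9 and 77.9 CPM in heavy and 477, 638 and 468 CPM in light polysomes, a ratio of -2.83 ± 0.28 (edgeR adjusted p = 6.97e-14). Gpx4, the peroxidase that protects membrane lipids (197 residues), had -1.94 and Selenoh -2.73. The 7 selenoproteins of 100 to 200 residues were all called lower, with a median of -1.32. Among the 4 higher genes were Txnrd1, the cytosolic thioredoxin reductase, at 0.90 and Selenoi at 0.91. Without pair A the higher count was 0 and the lower count 8, without pair 4 the higher count was 2, and without the block 0 were higher and 5 lower. The antizyme mRNAs Oaz1 and Oaz2, whose full-length product needs a programmed frameshift, were both lower, at -1.91 and -2.34.

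The proteasome, the protease that degrades ubiquitin-tagged proteins, was the list farthest on the heavy side. Of its 31 subunits 30 were called higher and 0 lower, with a median of 1.44. In the fit without the block 10 were higher. Psmd13, of the regulatory lid, had 246, 176 and 111 CPM in heavy and 91.3, 32.7 and 43.1 CPM in light polysomes, a ratio of 1.74 ± 0.25 (edgeR adjusted p = 3.14e-08). Psmd12 had 1.71 and the core subunit Psma5 1.70. Only Psmd8 was not called, at 0.55 with an edgeR adjusted p of 0.0817. Between 200 and 400 residues the 21 subunits of that length had a median of 1.39, against 0.15 for all 3166 coding genes.

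Cytosolic chaperones, which fold new proteins, had 14 of 21 genes higher and 1 lower, with a median of 1.14. Cct3, of the chaperonin ring that folds actin and tubulin, had 1.86, and Dnaja1, a cochaperone of Hsp70, 1.83. Hspe1, the small mitochondrial chaperonin of 102 residues, was the lower gene, at -0.84, with no call without pair A or without pair 4. Without pair A, 5 were called higher, and without the block 2. DNA replication genes had 25 of 38 higher and 1 lower, with a median of 0.89. Pcna, the sliding clamp of DNA polymerases, had 369, 357 and 293 CPM in heavy and 120, 68.8 and 85.9 CPM in light polysomes, a ratio of 1.92 ± 0.26 (edgeR adjusted p = 6.23e-09). The lower gene was Rpa3, the smallest subunit of replication protein A, at -1.15. Mitosis genes had 17 of 30 higher, led by Cdc20 (1.38) and the kinase Aurkb (1.35), and 2 lower, Ccnf (-0.97) and Birc5 (-0.57, with no call without pair A or without pair 4). Without pair A the higher counts were 10 for replication and 6 for mitosis, and without pair 4 mitosis also had 6. Without the block, 3 replication genes and 0 mitosis genes were called higher.

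Aminoacyl-tRNA synthetases, which charge tRNAs and include the target of halofuginone, had 20 of 22 genes higher and 0 lower, with a median of 1.10. Hars, which charges histidine tRNAs, had 221, 147 and 220.3 CPM in heavy and 70.3, 36.3 and 70.8 CPM in light polysomes, a ratio of 1.77 ± 0.25 (edgeR adjusted p = 1.02e-08). Eprs itself had 206, 78.7 and 404 CPM in heavy and 112, 69.9 and 209 CPM in light polysomes, a ratio of 0.67 ± 0.25 (edgeR adjusted p = 0.0223). Its heavy and light libraries overlapped, and the ratio was 0.88 in pair A, 0.17 in pair 2 and 0.95 in pair 4. It was not called without pair A (0.51, edgeR adjusted p = 0.429), without pair 4 (0.55, adjusted p = 0.215), under the stricter filter (adjusted p = 0.0624) or without the block (adjusted p = 0.394). Yars, for tyrosine, followed Hars with 1.52. Qars and Vars were not called, at 0.30 and 0.42, except without pair 2 (0.81 and 0.66). Without pair A 9 synthetase genes were called higher, without pair 4 there were 12, and without the block 2.

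Translation factors had 20 of 43 genes higher and 6 lower, with a median of 0.47. Among the higher genes, Eif2s1, the subunit of eIF2 that is phosphorylated in the amino acid response, had 1.18 and Eif3c 1.23, neither called without pair A. Gspt1, the release factor eRF3a, was highest at 1.30. The lower group held Eif1 (-1.92, 113 residues), Tpt1 (-1.56) and Pabpc1, the cytosolic poly(A)-binding protein. Pabpc1 had 780, 751 and 867 CPM in heavy and 3078, 2699 and 2073 CPM in light polysomes, a ratio of -1.70 ± 0.29 (edgeR adjusted p = 1.51e-06), although its frame has 636 codons. Eef1a1, the elongation factor that delivers tRNAs, had 8656, 5058 and 9158 CPM in heavy and 9259, 12493 and 4320 CPM in light polysomes. The pairs went apart, with ratios of -0.10, -1.30 and 1.08, and the fitted ratio of -0.11 was not called (edgeR adjusted p = 0.805). Without pair 2 it was 0.49 and called. Without pair A, 2 factors were called higher and 3 lower, and without the block 0 and 3.

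Of 38 genes of the Atf4 response, which includes regulators, amino acid enzymes and transporters, 15 were higher and 11 lower in heavy polysomes, and the median was 0.48. Atf4, the transcription factor at its centre, had 610, 441 and 1714 CPM in heavy and 1951, 1822 and 1499 CPM in light polysomes. In pairs A and 2 the heavy value was far below the light value, and in pair 4 it was above it, with pair ratios of -1.68, -2.04 and 0.19. The fitted ratio was -1.20 ± 0.32 (edgeR adjusted p = 0.00122), and it was not called without pair A (-0.98, edgeR adjusted p = 0.152) or without the block (adjusted p = 0.250). Atf5, a relative with upstream frames of its own, had -1.94, and Ddit3, the factor CHOP, had -1.84 with 90.5, 36.7 and 597 CPM in heavy and 426, 169.8 and 1256 CPM in light polysomes. Nupr1, a stress protein of 80 residues, was lowest at -2.44. Ppp1r15a, which brings a phosphatase to eIF2, had -1.61. For Atf5, Ddit3, Nupr1 and Ppp1r15a alike, pair 4 had the smallest difference of the 3 pairs.

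The highest ratio of the list was that of Asns. Asns, which makes asparagine, had 737, 210.3 and 877 CPM in heavy and 255, 70.3 and 273 CPM in light polysomes, a ratio of 1.60 ± 0.27 (edgeR adjusted p = 8.83e-07). Its levels differed about as much between pairs as between pools, and every pair had a ratio between 1.53 and 1.68. The serine synthesis enzymes Phgdh, Psph and Psat1 had 1.54, 1.36 and 0.98, and the cystine transporter Slc7a11 had 1.11. Psat1 and Slc7a11 were not called without pair A. Slc3a2, the heavy chain that pairs with Slc7a11, and the transporter Slc38a2 had -0.02 and 0.44 and were not called. Trib3, a pseudokinase induced by Atf4, had 0.62 ± 0.26 (edgeR adjusted p = 0.0395). Its call was lost without pair A (adjusted p = 0.263), without pair 4 (0.120), without the block (0.742), with no filter (0.0548) and under the stricter filter (0.105), all by edgeR. Without pair A, 5 genes of the list were called higher and 6 lower, without pair 4 there were 8 and 8, and without the block 0 and 1.

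Of 19 genes known for regulatory upstream frames, 10 were lower and 3 higher, with a median of -0.70. Besides the Atf4 group, the lower genes included Slc35a4 (-1.96), Sat1 (-1.33), which acetylates polyamines, and Mdm2 (-0.84, not called without pair A), which targets p53. Azin1, the antizyme inhibitor, was the highest at 0.83, with no call without pair A or without pair 4. Within 200 to 400 residues the 6 genes of that length had a median of -1.09, against 0.15 for all coding genes. Without pair A, 6 were lower and 0 higher, without pair 4 there were 9 and 0, and without the block 1 was lower.

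The annotation gave a wider view, by ATG triplets ahead of the start codon. Among genes of 400 to 800 residues, those with no ATG triplet in the annotated 5′ untranslated region (1819) had a median ratio of 0.47, with 44.9% called higher and 10.7% lower. The median was 0.24 with 1 such triplet, 0.10 with 2, -0.02 with 3 to 4 and -0.05 with 5 or more (360 genes, 18.1% higher and 28.1% lower). In vehicle cells the medians were 0.50 with none and -0.06 with 5 or more. The same order held in pairs 2 and 4 and, apart from the last step, in pair A. Pair 2 had the narrowest range, with 0.27 at none and -0.02 at 5 or more. Between 200 and 400 residues, genes with no triplet had 0.30 and those with 3 or more -0.34. Above 1600 residues the medians of these groups were 0.27 and 0.28. Whether any triplet starts a translated frame was not measured. The length of the 5′ untranslated region also went with the ratio among genes of 400 to 800 residues. The median was 0.31 below 50 nt, 0.47 from 50 to 100 nt and 0.31 from 100 to 200 nt. It was 0.26 from 200 to 400 nt and 0.11 at 400 nt and more. The part of this length in the triplet values was not tested.

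Proline is the amino acid whose tRNA charging halofuginone blocks. Among genes of 400 to 800 residues, those with under 3% proline had a median ratio of 0.44 and those with 10% and more -0.07. The values in between were 0.38, 0.47, 0.35, 0.23 and 0.04 with rising proline content. Vehicle cells gave 0.52 below 3% and -0.12 at 10% and more. The 10% of genes richest in proline (405 genes) had a median of -0.05, with 19.3% called higher and 23.7% lower, against 0.28 for all genes of that length. The sets richest in histidine and cysteine had medians of -0.57 and -0.53, and the set richest in isoleucine 0.59. Vehicle medians for the same sets were -0.09 for proline, -0.72 for histidine, -0.65 for cysteine and 0.66 for isoleucine. These are descriptions across genes of 3 pairs, and base composition moves with them: at 62% and more GC in the coding sequence the median was -0.19, and between 46% and 50% it was 0.45. Below 42% it was -0.37. The part of base composition in the proline values was not tested.

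**Figure D4:**
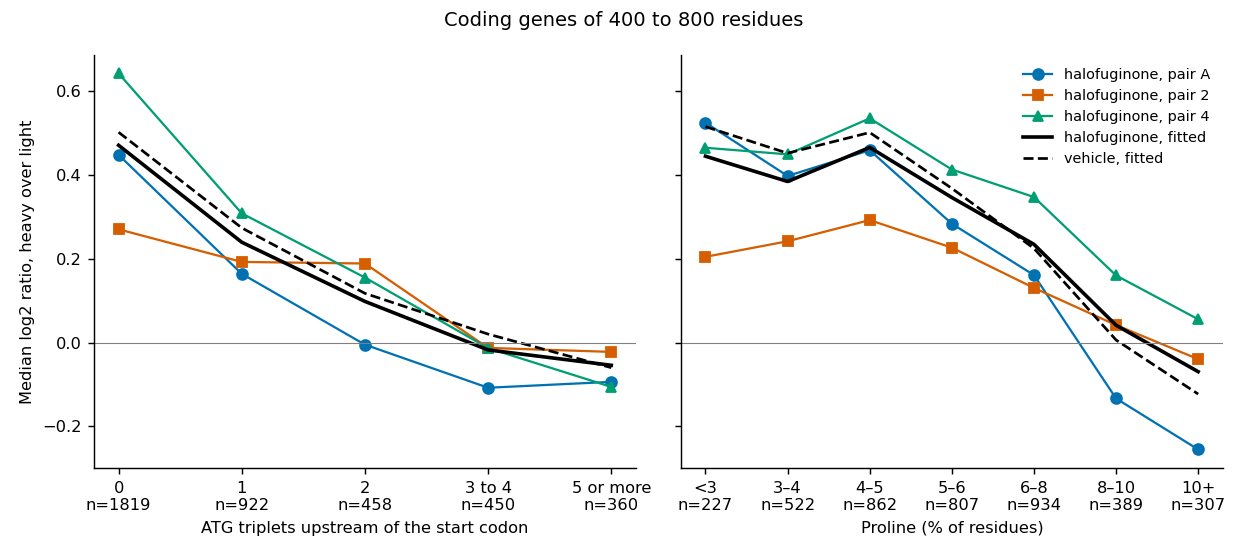
Median log2 ratio of heavy over light polysomes for genes of 400 to 800 residues, by the number of ATG triplets upstream of the start codon (left) and by proline content (right). Coloured lines are the 3 halofuginone pairs, the thick black line is the halofuginone fit and the dashed line the vehicle fit; the halofuginone median is 0.47 with no upstream triplet and -0.05 with 5 or more, and 0.44 below 3% proline and -0.07 at 10% and more.

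Enzymes that make, break down and recycle proline had 9 of 12 genes higher in heavy polysomes and 0 lower, with a median of 0.71. Oat, which links ornithine to proline, had 122, 51.2 and 54.2 CPM in heavy and 42.5, 18.3 and 10.4 CPM in light polysomes, a ratio of 1.78 ± 0.24 (edgeR adjusted p = 2.34e-09). Pepd, which splits dipeptides that end in proline, had 1.62, and Pycr1, the last enzyme of proline synthesis, 1.42. The libraries of Oat and Pepd did not overlap between pools. Aldh18a1, the first enzyme of the pathway, had 0.57 and was not called (edgeR adjusted p = 0.0627), except without pair 2, where it had 0.79. Without pair A, 3 were higher, without pair 4 there were 5, and without the block 1.

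Collagens, the proline-rich product that halofuginone is known for lowering in fibroblasts, had 13 of 20 chains higher in heavy polysomes and 0 lower, with a median of 0.64. Col1a2 had 2187, 741 and 1743 CPM in heavy and 951, 571 and 798 CPM in light polysomes. The ranges overlapped because pair 2 was low in both pools, and the ratio was 0.90 ± 0.28 (edgeR adjusted p = 0.00598), with adjusted p = 0.289 without pair A and 0.143 without pair 4. Col1a1, its partner chain, had 934, 149 and 420 CPM in heavy and 643, 156 and 292 CPM in light polysomes, a ratio of 0.33 that was not called (edgeR adjusted p = 0.296), though without pair 2 it was 0.53 and called. Col3a1 had 0.60 ± 0.24 (edgeR adjusted p = 0.0296). The list ran from Col27a1, at -0.47 and not called, to Col12a1, a chain that decorates collagen fibrils, at 1.07. The median over the 20 chains was 0.68 in pair A, 0.04 in pair 2 and 1.02 in pair 4. Without pair A 1 of the 18 chains tested was called, and without pair 4 or without the block 0 were. Under the stricter filter 5 of the 14 chains tested were called.

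Other large matrix proteins had 14 of 23 genes higher and 0 lower, with a median of 0.77, and were led by Lamc1, a laminin chain, at 0.98. Fibronectin (Fn1) had 2173, 401 and 1432 CPM in heavy and 1536, 449 and 905 CPM in light polysomes and was not called, at 0.33 (edgeR adjusted p = 0.322), though without pair 2 it was 0.58 and called. Enzymes that modify collagen had 7 of 18 higher and 0 lower, with P3h3, a prolyl 3-hydroxylase family member, at 1.20 and P4hb, a subunit of prolyl 4-hydroxylase, at 0.88. Small matrix proteins had 7 of 15 higher and 2 lower, from the proteoglycan Dcn at 1.33 to Cyr61 at -1.09. Without pair A each of these 3 lists had 1 gene called higher, and Lamc1, P4hb and Cyr61 were not called. Without pair 4 the higher counts were 3 of 25 for large matrix proteins and 2 of 18 for the modifying enzymes. Small matrix proteins then had 2 of 16 higher. Without pair 2 the large matrix proteins had 22 of 25 higher and the modifying enzymes 15 of 18. Small matrix proteins then had 4 of 16 lower. More genes of both matrix lists passed the filter in these fits than in the main fit. Without the block the higher counts of the 3 lists were 0, 1 and 0.

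Growth factor receptors and integrins had 12 of 28 genes higher and 0 lower, and Igf1r and Itgb1 were highest at 1.14 each, Itgb1 with no call without pair A. Of 26 chemokines and cytokines, 13 were lower and 2 higher, with a median of -0.49. Cxcl1, a neutrophil chemokine of 96 residues, had 30.6, 58.6 and 12.7 CPM in heavy and 183, 283 and 47.6 CPM in light polysomes, a ratio of -2.26 ± 0.25 (edgeR adjusted p = 7.34e-12). The heavy library of pair 2 stood above the light library of pair 4, while each pair was lower in heavy. Cxcl12 had -2.04 and Il6 -1.98, while the growth factor Hgf (728 residues) had 0.95, with no call without pair A or without pair 4. Immediate early transcription factors had 14 of 24 lower and 2 higher, from Zfp36 at -2.37, which speeds the decay of cytokine mRNAs, to Jun at 0.82, which was not called without pair 4. Fos had -1.65 and Jund -1.53. Without pair A the receptors had 1 higher, the cytokines 8 lower and the immediate early genes 9 lower. Without pair 4 the receptors had 3 higher and the immediate early genes 0 higher, and without the block the lists had 0 higher, 1 lower and 3 lower. The 2 higher cytokines became 0 without pair A and 1 without pair 2 or pair 4.

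Very large cytoskeletal and scaffold proteins had 16 of 30 higher and 0 lower, including Huwe1 (4378 residues) at 1.19 and Macf1 (7355 residues, not called without pair A) at 1.13, with medians of 0.49, 0.06 and 0.97 in pairs A, 2 and 4. Actins, tubulins and small actin-binding proteins had 16 of 30 higher and 5 lower. Actb, often used as a reference gene, had 4624, 4089 and 5603 CPM in heavy and 4357, 1929 and 3615 CPM in light polysomes, a ratio of 0.60 (edgeR adjusted p = 0.0840), and Gapdh had 1.24 ± 0.29 (edgeR adjusted p = 0.000294). Autophagy and lysosome genes had 18 of 34 higher and 3 lower, led by the protease Ctsl at 1.65. Endoplasmic reticulum chaperones and translocon genes had 16 of 32 higher and 4 lower, from Pdia6 at 1.60 to Sec61g, of 68 residues, at -2.42. Genes of cholesterol synthesis and its control had 12 of 24 higher and 3 lower, from Insig1, which holds the pathway's regulator in the endoplasmic reticulum, at -1.09 to the isomerase Idi1 at 1.45. Targets of p53 had 2 of 20 higher and 10 lower, with the death receptor Fas at 0.84 and the death-promoting protein Pmaip1 (Noxa) at -1.41. Interferon response genes had 2 of 14 higher and 2 lower, with Irf3 at 1.07 and Ifitm2 at -0.86. Nonsense-mediated decay and deadenylation factors had 3 of 20 higher and 2 lower, with the kinase Smg1 at 0.94 and the deadenylase Cnot7 at -1.41. The calls of Fas, Pmaip1, Insig1, Ifitm2 and Smg1 were lost without pair A, those of Ifitm2 and Smg1 also without pair 4, and that of Idi1 without pair 2.

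Calls in these lists changed when a pair or the block was left out, as calls over all genes did. Over all genes, 3174 were higher with all pairs and 234 without the block. Leaving out pair A, 2 or 4 gave 988, 3784 and 1898 higher. The lower counts over all genes were 3264 with all pairs, 868 without the block, and 2047, 3690 and 2709 without pair A, 2 or 4. Very large proteins had 2 higher without pair A, 25 without pair 2, 5 without pair 4 and 0 without the block, against 16 in all pairs. Actins, tubulins and actin-binding proteins had 4 higher and 2 lower without pair A, 13 and 8 without pair 2, 9 and 2 without pair 4, and 0 and 2 without the block. Autophagy and lysosome genes had 5 higher without pair A, 9 without pair 4 and 4 without the block, and 5 lower without pair 2. Endoplasmic reticulum genes had 4 higher without pair A, 9 without pair 4 and 0 without the block, and 8 lower without pair 2. Cholesterol genes had 2 higher and 0 lower without pair A, 7 and 1 without pair 4, and 0 and 0 without the block. The p53 targets had 0 higher and 4 lower without pair A, 1 and 8 without pair 4, and 0 and 1 without the block. The decay factors had 0 and 1 without pair A or pair 4 and 6 and 4 without pair 2. The interferon genes had 1 and 0 without pair A, 2 and 4 without pair 2, and 1 and 1 without pair 4. Both had 0 called without the block.

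Vehicle cells gave nearly the same placement of mRNAs. Their heavy and light pools differed for 8115 of 12586 genes (64.5%), with 31.8% higher and 32.6% lower in heavy, and 4002 were called without the block. Across the 12118 genes tested in both treatments the log2 ratios had a Pearson r of 0.965, and 93.1% had the same sign. Called in both in the same direction were 6093 genes, which is 95.9% of the halofuginone calls and 77.3% of the vehicle calls among these genes. Called in opposite directions was 1 gene, Avil. The difference between treatments was tested directly, as the log2 ratio in halofuginone cells minus that in vehicle cells over 12 libraries. It was called for 0 of 13141 genes (0%) by edgeR, and 156 genes (1.19%) had an unadjusted p under 0.05. DESeq2 called 1 gene, Avil. The median gene had a 95% interval of ± 0.64 around its difference, and ± 0.57 at 20 CPM and more, before any adjustment for the number of genes, so differences well above that size could also go uncalled.

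Avil (advillin, an actin-severing protein of the villin family) is encoded at chr10:127000709-127020994 on the plus strand of GRCm38. In halofuginone cells it had 19.8, 5.82 and 41.9 CPM in heavy and 8.93, 3.12 and 12.4 CPM in light polysomes, a ratio of 1.30 ± 0.25. In vehicle cells it had 0.352, 0.126 and 1.19 CPM in heavy and 1.07, 0.902 and 1.91 CPM in light polysomes, a ratio of -1.45. Every halofuginone pair was higher in heavy and every vehicle pair lower. The difference was 2.64, with a 95% interval of 1.63 to 3.65 and an unadjusted p of 0.00011 in edgeR's quasi-likelihood test, but an adjusted p of 1. Porcn, which attaches a fatty acid to Wnt proteins, had -0.71 in halofuginone cells and 0.35 in vehicle cells, a difference of -1.14 (interval -1.74 to -0.55). Gatb, a subunit of the mitochondrial amidotransferase, had 0.81 in halofuginone cells and -0.09 in vehicle cells, a difference of 0.81 (interval 0.21 to 1.42). Btg2, an antiproliferative p53 target, had -1.39 in halofuginone cells and -2.02 in vehicle cells. The scavenger receptor Colec12 had 0.63 in halofuginone cells and 1.24 in vehicle cells. Ano8, also picked by its small p, had a difference of -0.72 (edgeR quasi-likelihood test, unadjusted p = 0.0085). None of these genes passed the threshold for the difference after adjustment in this fit. In halofuginone cells the calls of Gatb and Colec12 were lost without pair A or pair 4, and that of Porcn without pair A.

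For the genes the treatment bears on, the intervals were wide. The ratio of Atf4 was -1.20 with halofuginone and -2.02 in vehicle, a difference of 0.74 with a 95% interval of -0.38 to 1.87. Trib3 had 0.62 with halofuginone and -0.01 in vehicle, a difference of 0.55 (0.01 to 1.08, edgeR unadjusted p = 0.0462). Asns had 1.60 with halofuginone and 1.56 in vehicle, with a difference of -0.04 (-0.60 to 0.52). Eprs had 0.67 with halofuginone and 0.48 in vehicle, a difference of 0.11 (-0.57 to 0.79). Col1a1 had 0.33 with halofuginone and 0.77 in vehicle, a difference of -0.52 (-1.19 to 0.15). Col1a2 had 0.90 with halofuginone and 1.19 in vehicle, a difference of -0.37 (-1.16 to 0.42). None of these 6 passed the threshold after adjustment.

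List by list the difference depended on scaling, since the median difference over all 12310 genes was -0.07 with TMM scaling but 0.01 with median-of-ratios factors or library totals and 0.05 under the stricter filter. A lower ratio with halofuginone was found for 7618 of the 12310 genes with TMM scaling and for 5824 with median-of-ratios factors. Of the 20 collagen chains 19 had a lower ratio with halofuginone than in vehicle, also with median-of-ratios factors, and the list's median difference was -0.46, between -0.59 and -0.34 over the alternatives. All 18 collagen-modifying enzymes had a lower ratio, with a median of -0.36, between -0.52 and -0.25 over the alternatives. Among very large cytoskeletal proteins 29 of 30 had a lower ratio, but 20 with median-of-ratios factors, 15 under the stricter filter and 12 without pair A. Among large-subunit ribosomal genes 45 of 46 had a higher ratio with halofuginone, with a median difference of 0.18, and among small-subunit genes 30 of 32, with 0.22. Without pair 4 these medians were 0.06 and 0.06, and 34 and 27 genes were higher. Short coding genes in general went the same way. Of all 1195 with 100 to 200 residues, 859 had a higher ratio, with a median difference of 0.10. The ribosomal genes of that length had 0.20 (27 large-subunit) and 0.23 (20 small-subunit). Of the 504 coding genes with 1600 residues and more, 361 had a lower ratio, with a median difference of -0.11. No member of these lists was called for the difference, the members share their libraries, and the list medians were not tested.

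**Figure D5:**
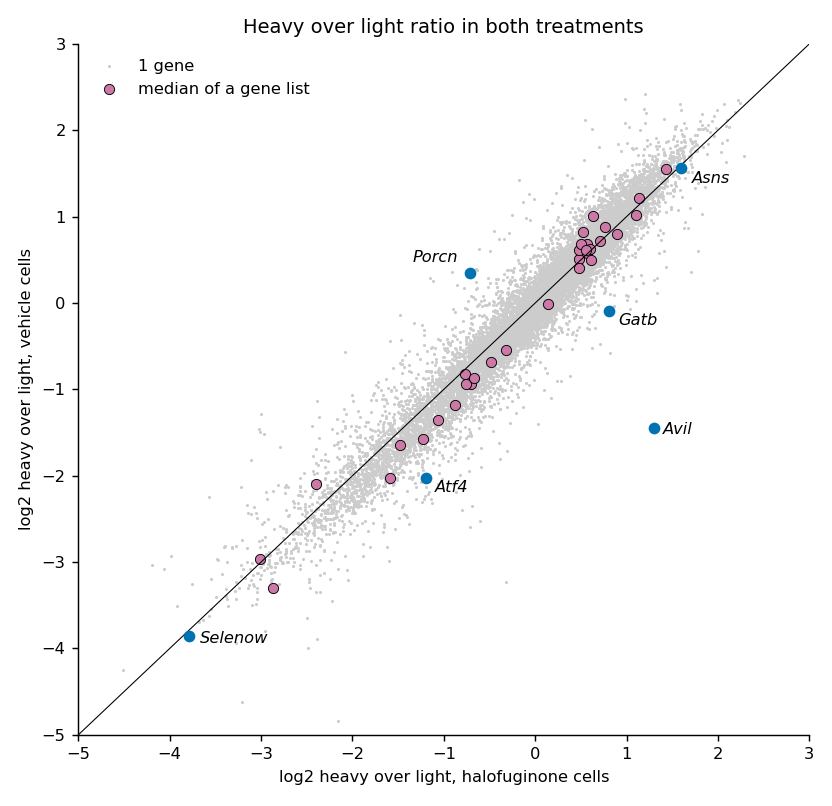
Log2 ratio of heavy over light polysomes in halofuginone cells (x axis) against vehicle cells (y axis), with grey points for genes, pink points for medians of gene lists, and a line of equal values. Most genes lie along the line (Pearson r 0.965 over 12118 genes), and Avil, at 1.30 with halofuginone and -1.45 in vehicle, lies farthest from it among the 6 genes named in blue.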

How the data were processed

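RNA of heavy and light polysome pools from halofuginone and vehicle cells was analysed, from a table of whole-number read counts per gene symbol for 24 libraries that the authors deposited. Libraries were made with the TruSeq Stranded mRNA kit, per the labels' protocols. The submitters' processing notes name featureCounts, Subread 1.5.0p3, STAR 2.5.2b, Trimmomatic 0.36 and GRCm38.p5, without the role of each. Overlapping genes and genes with pseudogene copies are less certain, since strand and multiple-match settings were not given in the sources used here. The table held 0 columns of other samples.

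Columns were matched to groups by treatment and gradient fractions in their headers, and to pairs by header tag. Tags were taken to pair libraries because deviations of heavy and light libraries from their group means correlated across genes at 0.823 (A), 0.676 (2) and 0.778 (4) with halofuginone and at 0.71, 0.686 and 0.768 in vehicle. Between different tags the correlations were negative. Subtracting the mean of 3 libraries forces this on average once same-tag values are positive, so it adds no support for the pairing.

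Counts were fitted with edgeR 4.0.16 in R 4.3.3 (filterByExpr, TMM scaling, quasi-likelihood test, tag as block, Benjamini-Hochberg threshold 0.05 over all genes tested). The difference between treatments came from 12 libraries with 6 blocks. Variances were shared between genes with prior degrees of freedom of 77.5 (halofuginone), 14.0 (vehicle) and 7.55 (12 libraries). For halofuginone, edgeR's smallest adjusted p was 4.59e-18 in the 6-library fit and 1.98e-06 in the 12-library fit, so small p-values depend on this sharing. CPM values are TMM-scaled within a treatment, the ratio of a single pair used a pseudocount of 0.5 CPM, and log2 ratios are heavy over light. The scripts were tested on simulated data. Depth was 14541443 to 21571893 counts in the halofuginone pools. Protein length, upstream ATG triplets and composition came from GENCODE M21, which held 12014 of the 12310 genes tested and a complete coding sequence for 10990, using 1 transcript a gene.

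Gene lists are described by counts of called genes and medians, without set tests. The members and the 37 lists were chosen with earlier results of these data known. Named were 14 fixed genes, the 8 highest and 8 lowest called genes with at least 20 CPM and libraries that did not overlap between pools (predicted genes and pseudogenes left out), the 2 called members of each list with the largest ratio or else the one with the smallest p, each list's extremes, and the 3 genes in each direction with the smallest p for the difference among genes averaging 20 CPM or more in 1 of the pools (same exclusions). Other list members were named after their values were seen. Alternatives were no block, DESeq2 1.42.0, median-of-ratios factors, library totals, no filter, at least 10 CPM in 3 libraries, no mitochondrial RNAs, a 12-library fit, and leaving out each pair.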

Additional observations from a re-analysis of the deposited data

Results flagged for a closer look

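Every pair of Avil moved one way with halofuginone and the other way in vehicle. The log2 ratio of heavy over light polysomes in halofuginone cells minus that in vehicle cells was 2.64 (95% interval 1.63 to 3.65). The halofuginone pairs were higher in heavy polysomes and the vehicle pairs lower. The difference had an unadjusted p of 0.00011 in edgeR's quasi-likelihood test and an adjusted p of 1 over 13141 genes, and DESeq2 gave an adjusted p of 0.00113. The adjusted p over the edgeR alternatives lay between 7.23e-07, with no filter, and 1. With no filter the pseudogene Smt3h2-ps had a smaller p, and without pair A it was called and Avil was not. Vehicle levels were between 0.126 and 1.91 CPM, against 3.12 to 41.9 CPM in halofuginone cells. The part of this low vehicle level in the difference was not tested.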

How the results depend on the processing

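Beside the 6438 genes called in halofuginone cells (3174 higher, 3264 lower), the fit without the replicate block, which ignores the pairing by tag, called 1102 (234 higher, 868 lower). Leaving out a pair gave 3035 to 7474 called genes, 988 to 3784 higher and 2047 to 3690 lower, with the lowest counts without pair A. The other alternatives gave 4467 to 7057. In vehicle cells the fit without the block called 4002 genes (1719 higher, 2283 lower), against 8115 (4006 and 4109). For the difference between treatments, 0 genes were called, 4 with no filter (Avil, Gm29216, Gm11263 and Smt3h2-ps, all higher), 1 with DESeq2 (Avil, higher) and 0 to 1 without a pair, the 1 being the pseudogene Smt3h2-ps without pair A. The median difference of all genes was -0.06, but 0.02 with median-of-ratios factors or DESeq2, 0.01 with library totals, 0.02 without mitochondrial RNAs and 0.05 under the stricter filter, a shift of 0.12. The median of proteins under 100 residues was -2.10 under the stricter filter. Eef1a1 (-0.11) ranged from -0.68 without pair 4 to 0.49 without pair 2, where it reversed. Of 139 named genes, every setting could test 119, of which 56 kept their call status. Direction had to stay the same only for genes called in the main fit or the setting. Over all 139, 64 lost the call without the block, 28 without pair A and 18 without pair 4. List medians changed sign without pair 2 for mitochondrial ribosomal proteins (-0.03), small GTPases (-0.08), decay factors (0.16) and interferon genes (0.07), and decay factors had 0.05 with library totals. The cause of these changes was not tested, beyond the fewer libraries or genes each setting holds.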
